A study of Mus musculus with 12 samples.

Results

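Interferon-stimulated genes and the receptors, kinases and transcription factors that switch them on were followed in the mouse myocardium. The set held 40 gene names, chosen by symbol with earlier results of these data known. Of these, 39 had a probe set among the 19505 genes of the array. Ifi44 was not analysed here. For each gene the probe set with the highest mean over all arrays was to be used, although none of the 39 had more than 1. Of the 39 genes, 33 were bright enough to be tested, and Ddx58, Dhx58, Trim21, Mx1, Rtp4 and Cxcl10 fell under the limit for dim genes.

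RNA was measured on 12 arrays, 4 in each of 3 groups, with 4 mice a group per the series design. AngIV mice were diabetic and also received angiotensin IV, a short peptide derived from angiotensin II, at a high dose of 2.88 mg/kg/day, infused between weeks 8 and 24. DM mice were made diabetic by intraperitoneal streptozotocin, which destroys pancreatic beta cells, on 5 successive days. They were kept if fasting glucose reached 16.7 mM at 2 weeks, and this induction was shared by the AngIV mice. NC mice received vehicle in place of streptozotocin for 5 days. The labels mark the tissue of all groups 6 months and angiotensin IV treatment 4 months, give no strain, sex or age, and mention no sham infusion in DM or NC mice. A disease tag that calls NC samples diabetic and AngIV samples negative controls goes against the titles of those samples, and groups were taken from the titles.

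Interferons are secreted proteins that alarm cells to infection. Type I interferons bind a receptor made of IFNAR1 and IFNAR2, interferon gamma binds IFNGR1 and IFNGR2, and the kinases JAK1, JAK2 and TYK2 on these receptors phosphorylate STAT proteins. STAT2 and IRF9 act in a complex that binds a DNA element called the ISRE (interferon-stimulated response element) in front of antiviral genes, while the GAS element (gamma-activated site) serves the response to interferon gamma. In the heart, cardiomyocytes, fibroblasts, endothelial cells and resident macrophages can all express these genes.

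Promoter windows of the RefSeq annotation (mouse GRCm38.p6) are shown first for the 3 genes called in a comparison (Jak2, Irf9 and Ifit2), the other IFIT genes, Ifitm3, and Isg15, the member with the most ISRE-type matches. They display where the letters of the element lie and where they are lacking. Each window runs from 250 bases before the annotated start to 50 bases after it, 5′ to 3′ on the gene's strand. Capitals mark the ISRE-type letters GAAANNGAAA or their complement TTTCNNTTTC. Position -1 is the last base before the start and 1 is the start base. The windows are chr19:29251553-29251852 (+ strand) for Jak2, chr14:55603735-55604034 (+ strand) for Irf9, chr19:34640639-34640938 (+ strand) for Ifit1, chr19:34550444-34550743 (+ strand) for Ifit2, chr19:34583279-34583578 (+ strand) for Ifit3, chr4:156200769-156201068 (- strand) for Isg15 and chr7:141010695-141010994 (- strand) for Ifitm3.
Jak2: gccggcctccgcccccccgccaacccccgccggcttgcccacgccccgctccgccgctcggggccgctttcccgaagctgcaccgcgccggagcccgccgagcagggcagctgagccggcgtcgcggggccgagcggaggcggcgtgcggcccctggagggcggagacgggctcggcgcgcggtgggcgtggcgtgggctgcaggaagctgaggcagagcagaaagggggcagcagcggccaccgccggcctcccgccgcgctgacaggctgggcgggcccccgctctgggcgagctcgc
Irf9: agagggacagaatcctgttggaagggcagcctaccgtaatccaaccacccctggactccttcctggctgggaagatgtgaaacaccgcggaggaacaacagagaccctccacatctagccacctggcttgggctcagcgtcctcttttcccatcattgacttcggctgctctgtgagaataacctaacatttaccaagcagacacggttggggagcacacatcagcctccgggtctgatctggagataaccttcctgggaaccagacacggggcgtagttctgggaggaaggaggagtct
Ifit1: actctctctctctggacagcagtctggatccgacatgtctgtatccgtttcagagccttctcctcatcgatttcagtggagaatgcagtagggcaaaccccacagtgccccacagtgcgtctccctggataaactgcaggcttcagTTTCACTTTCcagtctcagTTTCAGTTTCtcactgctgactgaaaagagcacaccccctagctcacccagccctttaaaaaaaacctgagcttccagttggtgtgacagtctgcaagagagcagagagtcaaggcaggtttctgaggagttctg
Ifit2: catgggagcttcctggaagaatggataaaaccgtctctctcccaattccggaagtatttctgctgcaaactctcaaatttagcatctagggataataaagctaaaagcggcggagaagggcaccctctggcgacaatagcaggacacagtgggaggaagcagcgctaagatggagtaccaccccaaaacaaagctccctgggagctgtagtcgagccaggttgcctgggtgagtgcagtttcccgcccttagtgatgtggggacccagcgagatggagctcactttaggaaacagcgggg
Ifit3: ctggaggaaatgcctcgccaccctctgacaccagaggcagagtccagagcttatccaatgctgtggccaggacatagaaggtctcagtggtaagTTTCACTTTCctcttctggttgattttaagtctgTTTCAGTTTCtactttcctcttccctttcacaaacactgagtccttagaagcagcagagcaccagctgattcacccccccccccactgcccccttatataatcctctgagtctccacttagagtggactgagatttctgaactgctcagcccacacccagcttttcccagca
Isg15: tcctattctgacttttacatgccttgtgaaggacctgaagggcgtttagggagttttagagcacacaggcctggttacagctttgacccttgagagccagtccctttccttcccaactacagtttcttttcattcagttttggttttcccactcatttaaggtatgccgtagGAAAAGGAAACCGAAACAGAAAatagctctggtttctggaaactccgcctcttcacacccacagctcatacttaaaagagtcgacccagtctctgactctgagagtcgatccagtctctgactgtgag
Ifitm3: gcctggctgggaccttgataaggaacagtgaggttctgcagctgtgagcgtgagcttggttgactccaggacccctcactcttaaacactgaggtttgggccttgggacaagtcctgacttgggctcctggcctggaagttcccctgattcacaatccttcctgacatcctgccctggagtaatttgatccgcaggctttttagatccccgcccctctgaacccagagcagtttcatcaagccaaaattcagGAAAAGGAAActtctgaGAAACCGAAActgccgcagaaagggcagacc
Ifit1 and Ifit3 each hold a TTTCACTTTC followed by a TTTCAGTTTC, which begin at -104 and -85 in Ifit1 and at -156 and -122 in Ifit3. Isg15 holds 3 overlapping matches that begin at -78, -72 and -66. In Ifitm3 both matches lie after the start, at 3 and 20. The windows of Jak2, Irf9 and Ifit2, the 3 genes called, hold no such letters, and neither do those of the other annotated starts of Irf9 and Ifit2. An element may lie outside these windows or differ from the letters searched, so an empty window does not mean a gene lacks an ISRE.

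Windows were found for 33 of the 40 names, and both strands were searched with overlapping matches counted. ISRE-type letters stood in the windows of 15 of the 33 genes (45.5%), against 3.99% of all 27025 genes with a window. More than 1 match stood in 8 of them (24.2%), against 0.266% of all genes. GAS-type letters, TTCNNNGAA, stood in 11 (33.3%), against 9.55% of all genes. ISRE-type letters occurred in 0 of 6 receptor and kinase genes, in 2 of 7 transcription factor genes and in 2 of 3 IFIT genes. A match is only a run of letters in the RefSeq sequence, which is that of C57BL/6J, and the arrays did not measure binding.

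All 12 arrays carried heart muscle RNA, with 8 of 8 cardiomyocyte markers above the negative control probe sets in every group. The level under which 95% of negative control probe sets lay was 5.53 in AngIV, 5.53 in DM and 5.48 in NC (log2 signal). Of the 33 genes tested, 14 were above that level in all 3 groups, 16 in none and 3 (Stat2, Irf3 and Ifih1) in some. A log2 difference of a gene under that level in a compared group is a difference of signals near background, and no fold is given for it. All 8 T and natural killer cell markers and all 3 B cell markers analysed lay at or under it. Atrial light chain Myl7 lay above it on DM arrays 1, 2 and 4 and on NC arrays 1 and 3, against no AngIV array. In bulk tissue, fewer cells of a type and less RNA per cell cannot be told apart.

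**Figure D1:**
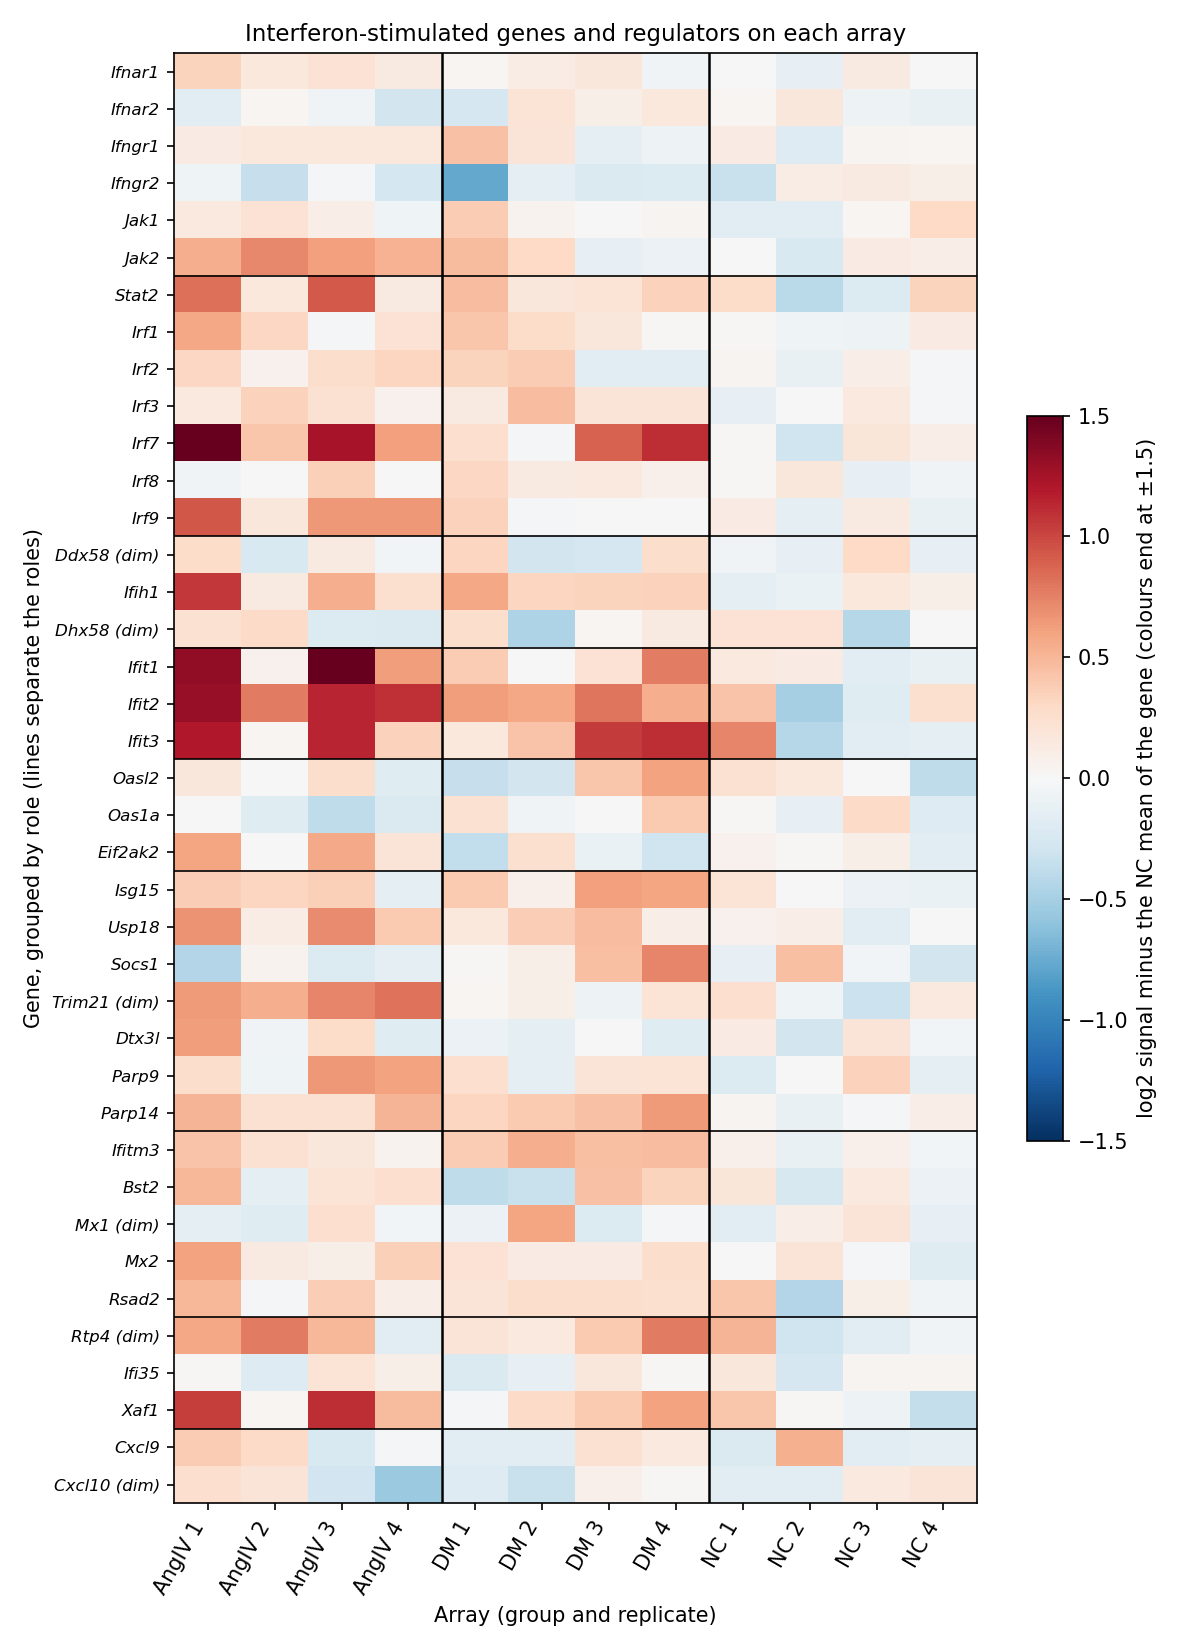
Log2 signal of each interferon gene on each of the 12 arrays, minus that gene's mean in NC, with 39 genes in rows grouped by role (those too dim to test are marked) and arrays in columns, AngIV left, then DM, then NC. Red is higher and blue lower than the NC mean, and colours end at 1.5. Red prevails on AngIV array 1, on which the median of the 33 tested genes was 0.50 above the NC mean.

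Among the receptor chains and kinases, Jak2 was the gene that rose. JAK2 is the kinase that sits on IFNGR2, and also serves growth hormone, erythropoietin and many cytokine receptors. Its log2 signals were 6.31, 6.49, 6.38 and 6.29 on the AngIV arrays, 6.24, 6.07, 5.65 and 5.68 on the DM arrays and 5.77, 5.54, 5.89 and 5.87 on the NC arrays. All 4 AngIV arrays lay above every DM and NC array, while DM arrays 1 and 2 lay above the NC range and DM arrays 3 and 4 within it. The change in AngIV against NC was 0.60 ± 0.14 (log2, SE), or 1.52-fold, with a limma adjusted p of 0.0335. Jak2 in AngIV against DM differed by 0.46 ± 0.14, or 1.38-fold, with a limma adjusted p of 0.387.

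Ifngr2, the second chain of the interferon gamma receptor, had log2 signals of 8.42, 8.14, 8.45 and 8.22 on the AngIV arrays, 7.72, 8.35, 8.27 and 8.28 on the DM arrays and 8.15, 8.60, 8.62 and 8.57 on the NC arrays. DM array 1 and NC array 1 were each low in their group, and DM arrays 2 to 4 lay between NC array 1 and the other NC arrays. The difference in DM against NC was -0.33 ± 0.15, with a limma adjusted p of 0.444. Ifnar1, which starts type I interferon signalling together with IFNAR2, had signals near background of 5.54, 5.38, 5.44 and 5.35 on the AngIV arrays, 5.24, 5.32, 5.39 and 5.17 on the DM arrays and 5.20, 5.09, 5.35 and 5.21 on the NC arrays. AngIV arrays 1 to 3 lay above every NC array and AngIV array 4 just under NC array 3. Its difference in AngIV against NC was 0.21 ± 0.09, with a limma adjusted p of 0.239. The other members of this group, Ifnar2, Ifngr1 and Jak1, were above background, and their unadjusted limma p-values were 0.05 or more in all 3 comparisons. Ifnar2 averaged 8.00 ± 0.13 in AngIV, 8.17 ± 0.21 in DM and 8.12 ± 0.13 in NC (SD, n = 4 each).

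Of the 7 STAT and IRF genes, Irf9 rose in AngIV against NC. IRF9 is the DNA-binding partner of STAT2. Its log2 signals were 5.54, 4.77, 5.26 and 5.25 on the AngIV arrays, 4.95, 4.59, 4.60 and 4.61 on the DM arrays and 4.73, 4.46, 4.75 and 4.49 on the NC arrays. Every AngIV array lay above every NC array, AngIV array 2 by the least, while DM array 1 lay above AngIV array 2 and the other DM arrays lay within the NC range. The difference of these near-background signals was 0.60 ± 0.15 in AngIV against NC (limma adjusted p = 0.0496) and 0.52 ± 0.15 in AngIV against DM (limma adjusted p = 0.372).

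Irf7, which amplifies type I interferon production and is itself induced by interferon, had near-background signals of 4.62, 3.47, 4.29 and 3.67 on the AngIV arrays, 3.31, 3.05, 3.95 and 4.16 on the DM arrays and 3.08, 2.76, 3.24 and 3.16 on the NC arrays. Every AngIV array lay above every NC array, and so did DM arrays 1, 3 and 4, with DM array 2 inside the NC range. The differences were 0.96 ± 0.26 in AngIV against NC and 0.56 ± 0.26 in DM against NC, with limma adjusted p-values of 0.066 and 0.462. Stat2 had signals of 5.88, 5.22, 5.97 and 5.19 on the AngIV arrays, 5.52, 5.22, 5.25 and 5.40 on the DM arrays and 5.32, 4.65, 4.85 and 5.38 on the NC arrays. AngIV arrays 1 and 3 were the highest of the 12, and AngIV arrays 2 and 4 lay within the NC range. Its difference in AngIV against NC, where NC was near background, was 0.51 ± 0.20, with a limma adjusted p of 0.179. Irf3, the factor that sensor pathways activate to start interferon transcription, had signals of 5.61, 5.80, 5.69 and 5.52 on the AngIV arrays, 5.59, 5.93, 5.65 and 5.65 on the DM arrays and 5.34, 5.46, 5.61 and 5.43 on the NC arrays. DM arrays 2 to 4 lay above every NC array, and DM array 1 just under NC array 3. Its difference in DM against NC, with NC near background, was 0.25 ± 0.10, with a limma adjusted p of 0.418. Irf1, Irf2 and Irf8 had unadjusted limma p-values of 0.05 or more in all comparisons. Irf1, a factor induced by interferon gamma, averaged 6.54 ± 0.26 in AngIV, 6.49 ± 0.17 in DM and 6.27 ± 0.09 in NC.

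Of the sensors of viral RNA, Ifih1 (MDA5) was bright enough to test, while Ddx58 (RIG-I) and Dhx58 (LGP2) were not. Ifih1 had log2 signals of 6.41, 5.47, 5.88 and 5.58 on the AngIV arrays, 5.92, 5.66, 5.68 and 5.68 on the DM arrays and 5.20, 5.24, 5.50 and 5.44 on the NC arrays. All DM arrays lay above all NC arrays, and AngIV array 1 was the highest of the 12 while AngIV array 2 lay below NC array 3. The difference was 0.49 ± 0.17 in AngIV against NC (limma adjusted p = 0.126) and 0.39 ± 0.17 in DM against NC (limma adjusted p = 0.406), with NC near background. Ddx58 ranged from 2.92 to 3.43 in AngIV, from 2.88 to 3.47 in DM and from 3.02 to 3.44 in NC.

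The IFIT proteins bind viral RNA and block its translation, and their genes are among the most inducible by interferon. Ifit2 rose in AngIV against NC, and its signals were 5.36, 4.83, 5.20 and 5.15 on the AngIV arrays, 4.69, 4.64, 4.86 and 4.60 on the DM arrays and 4.49, 3.56, 3.87 and 4.30 on the NC arrays. All AngIV and all DM arrays lay above all NC arrays, and DM array 3 lay just above AngIV array 2. The difference of these near-background signals was 1.08 ± 0.17 in AngIV against NC (limma adjusted p = 0.0078). It was 0.64 ± 0.17 in DM against NC (limma adjusted p = 0.198) and 0.44 ± 0.17 in AngIV against DM (limma adjusted p = 0.516). The 95% intervals of the last pair of differences were 0.27 to 1.01 and 0.07 to 0.81.

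Ifit3 was the one IFIT gene above background in all groups, with log2 signals of 7.37, 6.20, 7.31 and 6.52 on the AngIV arrays, 6.33, 6.61, 7.22 and 7.28 on the DM arrays and 6.90, 5.74, 6.01 and 6.03 on the NC arrays. AngIV arrays 1 and 3 and DM arrays 3 and 4 lay above 7, while NC array 1, at 6.90, lay above the other AngIV and DM arrays. The differences were 0.68 ± 0.30 in AngIV against NC and 0.69 ± 0.30 in DM against NC, or 1.6-fold and 1.61-fold, with limma adjusted p-values of 0.236 and 0.423. Ifit3b, a near-identical copy outside the set whose transcripts the probes may not tell from those of Ifit3, averaged 6.73 ± 0.65 in AngIV, 6.52 ± 0.47 in DM and 5.82 ± 0.70 in NC. Ifit1 had near-background signals of 5.01, 3.75, 5.64 and 4.31 on the AngIV arrays, 4.06, 3.67, 3.90 and 4.45 on the DM arrays and 3.83, 3.81, 3.52 and 3.57 on the NC arrays. AngIV arrays 1 and 3 were the highest of the 12, and AngIV array 2 lay below NC arrays 1 and 2. The differences were 0.99 ± 0.30 in AngIV against NC and 0.66 ± 0.30 in AngIV against DM, with limma adjusted p-values of 0.0886 and 0.554.

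**Figure D2:**
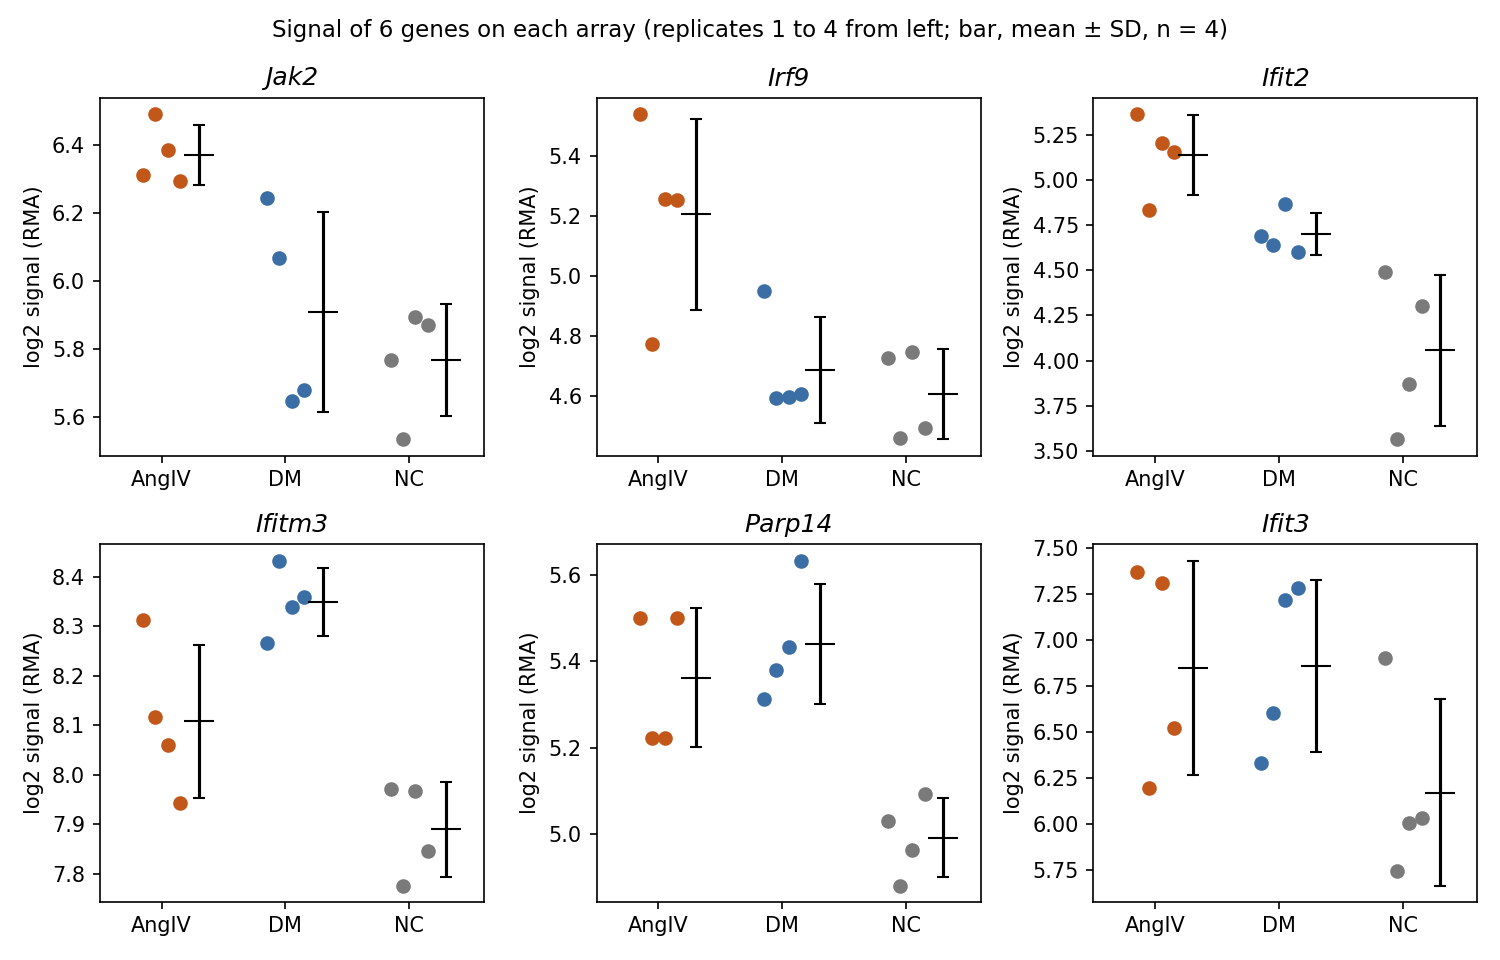
Log2 signal on each array (points) with the group mean and SD (bars) for Jak2, Irf9, Ifit2, Ifitm3, Parp14 and Ifit3, AngIV left, then DM, then NC (n = 4 each). The AngIV points of Jak2 lie above all DM and NC points, the DM points of Ifitm3 lie above all NC points, and the groups of Ifit3 overlap.

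PKR, the product of Eif2ak2, halts translation on sensing double-stranded RNA. Eif2ak2 had log2 signals of 6.43, 5.84, 6.41 and 6.03 on the AngIV arrays, 5.47, 6.08, 5.75 and 5.55 on the DM arrays and 5.90, 5.86, 5.93 and 5.67 on the NC arrays. AngIV arrays 1 and 3 were the highest of the 12, and DM array 2 lay above AngIV arrays 2 and 4. The difference was 0.46 ± 0.15 in AngIV against DM and 0.34 ± 0.15 in AngIV against NC, or 1.38-fold and 1.26-fold, with limma adjusted p-values of 0.464 and 0.256. Oas1a belongs to the OAS enzymes, whose product activates RNase L to cut RNA. Mice carry several close copies of this gene, which its probes may not tell apart, and its near-background signals were 3.83, 3.64, 3.44 and 3.61 on the AngIV arrays, 4.06, 3.77, 3.82 and 4.21 on the DM arrays and 3.85, 3.70, 4.12 and 3.64 on the NC arrays. The AngIV arrays lay below DM arrays 1 and 4, and AngIV array 1 above DM arrays 2 and 3. The difference in AngIV against DM was -0.33 ± 0.13, with a limma adjusted p of 0.52. Oasl2, a relative of the OAS genes, averaged 5.15 ± 0.20 in AngIV, 5.18 ± 0.48 in DM and 5.08 ± 0.27 in NC, near background in all groups.

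ISG15 is a ubiquitin-like protein that is attached to other proteins, and USP18 removes it and restrains the type I interferon receptor. Isg15 had near-background signals of 3.93, 3.89, 3.92 and 3.42 on the AngIV arrays, 3.95, 3.64, 4.18 and 4.15 on the DM arrays and 3.76, 3.55, 3.47 and 3.46 on the NC arrays. AngIV array 4 was the lowest of the 12, and the other AngIV arrays and DM arrays 1, 3 and 4 lay above every NC array. The difference in DM against NC was 0.42 ± 0.14, with a limma adjusted p of 0.295. Usp18 had near-background signals of 4.48, 3.92, 4.51 and 4.19 on the AngIV arrays, 3.96, 4.17, 4.27 and 3.90 on the DM arrays and 3.87, 3.90, 3.64 and 3.80 on the NC arrays. Every AngIV array lay above every NC array, AngIV array 2 barely so. The difference in AngIV against NC was 0.47 ± 0.14, with a limma adjusted p of 0.0789. Socs1, a feedback inhibitor of JAK kinases, had near-background signals of 3.67, 4.15, 3.90 and 3.97 on the AngIV arrays, 4.12, 4.19, 4.55 and 4.84 on the DM arrays and 3.98, 4.55, 4.06 and 3.83 on the NC arrays. DM arrays 2 to 4 lay above every AngIV array, and NC array 2 stood level with DM array 3. The difference in AngIV against DM was -0.50 ± 0.18, with a limma adjusted p of 0.492.

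PARP9 and PARP14 are ADP-ribosyltransferase family proteins linked to interferon responses, and DTX3L is the ubiquitin ligase that partners PARP9. Parp14 had log2 signals of 5.50, 5.22, 5.22 and 5.50 on the AngIV arrays, 5.31, 5.38, 5.43 and 5.63 on the DM arrays and 5.03, 4.88, 4.96 and 5.09 on the NC arrays. All AngIV and all DM arrays lay above all NC arrays. The difference was 0.37 ± 0.11 in AngIV against NC and 0.45 ± 0.11 in DM against NC, with limma adjusted p-values of 0.0789 and 0.131, and all group means were near background. Parp9 had near-background signals of 4.69, 4.36, 5.08 and 5.03 on the AngIV arrays, 4.68, 4.30, 4.62 and 4.64 on the DM arrays and 4.22, 4.44, 4.78 and 4.28 on the NC arrays. AngIV arrays 3 and 4 were the highest of the 12 and AngIV array 2 lay within the NC range. Its difference in AngIV against NC was 0.36 ± 0.16, with a limma adjusted p of 0.248. Dtx3l was above background and averaged 6.14 ± 0.36 in AngIV, 5.87 ± 0.08 in DM and 5.97 ± 0.21 in NC.

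IFITM3 sits in endosomal membranes and hinders the fusion of entering viruses. Ifitm3 had the smallest p-value of the 33 genes in DM against NC and was well above background, with log2 signals of 8.31, 8.12, 8.06 and 7.94 on the AngIV arrays, 8.27, 8.43, 8.34 and 8.36 on the DM arrays and 7.97, 7.78, 7.97 and 7.85 on the NC arrays. All DM arrays lay above all NC arrays, AngIV array 1 reached the DM range and AngIV array 4 the NC range. The difference was 0.46 ± 0.10 in DM against NC, or 1.37-fold, with a limma adjusted p of 0.104. In AngIV against DM it was -0.24 ± 0.10 (limma adjusted p = 0.527) and in AngIV against NC 0.22 ± 0.10 (limma adjusted p = 0.253). Mx2, a dynamin-like antiviral GTPase, had near-background signals of 4.36, 3.89, 3.85 and 4.12 on the AngIV arrays, 3.98, 3.88, 3.88 and 4.02 on the DM arrays and 3.77, 3.95, 3.74 and 3.57 on the NC arrays. AngIV arrays 1 and 4 were the highest of the 12 and the other AngIV arrays lay within the NC range. The difference in AngIV against NC was 0.30 ± 0.12, with a limma adjusted p of 0.201. Bst2, which encodes tetherin, averaged 5.77 ± 0.27 in AngIV, 5.59 ± 0.43 in DM and 5.57 ± 0.20 in NC, and Rsad2, which encodes viperin, averaged 4.08 ± 0.24 in AngIV, 4.08 ± 0.04 in DM and 3.84 ± 0.35 in NC.

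Xaf1, an interferon-induced gene that promotes cell death, had log2 signals of 6.55, 5.54, 6.62 and 5.98 on the AngIV arrays, 5.50, 5.80, 5.90 and 6.11 on the DM arrays and 5.92, 5.53, 5.43 and 5.16 on the NC arrays. AngIV arrays 1 and 3 were the highest of the 12, AngIV array 4 was above every NC array and AngIV array 2 within the NC range. The difference in AngIV against NC was 0.66 ± 0.22, or 1.58-fold, with a limma adjusted p of 0.124. Ifi35 was above background and averaged 6.65 ± 0.17 in AngIV, 6.59 ± 0.17 in DM and 6.62 ± 0.18 in NC. Cxcl9, a chemokine that draws T cells to sites of interferon gamma, averaged 5.00 ± 0.28 in AngIV, 4.91 ± 0.20 in DM and 4.90 ± 0.35 in NC, near background in all groups. Its partner Cxcl10 was too dim to test.

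In DM against NC, which asks what streptozotocin diabetes did, 0 of 33 interferon genes were called at a limma adjusted p under 0.05, where 0.022% of all genes tested were called. At an unadjusted limma p under 0.05, 8 were higher (24.2%), where 5.62% of all genes tested were higher, namely Irf3, Irf7, Ifih1, Ifit2, Ifit3, Isg15, Parp14 and Ifitm3. By the same measure 1 was lower, Ifngr2 (3.03%), where 5.08% of all genes were lower. The log2 difference was above 0 for 29 of the 33 (87.9%), where it was above 0 for 49.6% of all genes tested. All DM arrays lay above all NC arrays for 4 of the 33 (12.1%), where this held for 2.84% of all genes tested, and all lay below for 0 of the 33, where this held for 2.45%. The median difference was 0.16, beside -0.0016 over all genes tested. Because the set was chosen with earlier results of these data known, its shares beside all genes, here and below, are descriptions only. Of the 14 genes above background in all groups, 10 had a difference above 0, with 2 higher and 1 lower at an unadjusted limma p under 0.05 and a median of 0.10. Of the other 19, all 19 had a difference above 0, with 6 higher and 0 lower and a median of 0.25. Irf7 passed the limit for dim genes, a log2 signal of 3.40, through its mean over all arrays although its NC mean of 3.06 lay under it, and without Irf7 7 of 32 genes were higher. The 9 genes in either direction stand beside 10.7% of all genes tested, and this count was 5 both without NC array 2 and without NC array 4. Ifitm3 was called in DM against NC with a trend in limma's prior (limma adjusted p = 0.0325). It was also called among genes above the negative controls in at least 1 group (limma adjusted p = 0.0488).

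The AngIV against DM comparison asks what angiotensin IV added in diabetic mice. Here 0 of 33 genes were called at a limma adjusted p under 0.05, where 0% of all genes tested were called. At an unadjusted limma p under 0.05, 5 were higher (15.2%), where 5.27% of all genes tested were higher, namely Jak2, Irf9, Ifit1, Ifit2 and Eif2ak2. By the same measure 3 were lower, Oas1a, Socs1 and Ifitm3 (9.09%), where 3.51% of all genes were lower. The lower count became 1 with the mean of the atrial markers as a covariate, without DM array 4 or without AngIV array 3. With any other array left out it was 2 or 3. The difference was above 0 for 21 of 33 (63.6%), where it was for 52.9% of all genes tested, and the groups did not overlap for 1 gene, Jak2 (3.03%), where 3.57% of all genes tested were higher without overlap and 2.19% lower. The median difference was 0.10, beside 0.012 over all genes tested. The 14 genes above background held 2 of the higher genes and 1 of the lower, and the other 19 held 3 and 2, with a median of 0.10 in both sets. The 8 genes in either direction stand beside 8.78% of all genes tested, and this count became 4 without AngIV array 3 and 12 without AngIV array 2. The 95% interval of the difference was 0.17 to 0.75 for Jak2 and 0.20 to 0.83 for Irf9.

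In AngIV against NC, the joint difference of diabetes and angiotensin IV, 3 of 33 genes rose and 0 fell at a limma adjusted p under 0.05 (9.09%), where 2.15% of all genes tested changed, 1.52% rose and 0.623% fell. These were Jak2, Irf9 and Ifit2. At an unadjusted limma p under 0.05, 16 were higher (48.5%), where 10.9% of all genes were higher, and 0 were lower, where 7.74% were lower and 18.6% had such a p in either direction. The difference was above 0 for 29 of 33 (87.9%), where it was for 50.6% of all genes tested. Every AngIV array lay above every NC array for 6 genes (18.2%), namely Jak2, Irf7, Irf9, Ifit2, Usp18 and Parp14, where this held for 7.59% of all genes tested, and below every NC array for 0 genes, where this held for 5.17%. The median difference was 0.24, beside 0.0033 over all genes tested. Among the 14 genes above background in all groups, Jak2 was called, 5 had a higher signal with an unadjusted limma p under 0.05, 12 had a difference above 0 and the median was 0.21. Among the other 19, Irf9 and Ifit2 were called, 11 were higher, 17 had a difference above 0 and the median was 0.30. Without Irf7, whose NC mean lay under the limit for dim genes, 15 of 32 genes were higher and 5 did so without overlap. The 3 comparisons share their groups, so their values stand side by side and are not independent.

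The call on Ifit2 in AngIV against NC held without each array in turn, with limma adjusted p-values of 0.00586 to 0.0283. The call on Jak2 was lost without NC arrays 1, 2 or 4, with limma adjusted p-values of 0.069, 0.0934 and 0.0546, and without AngIV arrays 1, 2, 3 or 4, with 0.0554, 0.0932, 0.0867 and 0.0699. The call on Irf9 was lost without NC arrays 1, 2, 3 or 4, with limma adjusted p-values of 0.0723, 0.118, 0.0664 and 0.101, and without AngIV arrays 1, 3 or 4, with 0.103, 0.114 and 0.11. It was also lost without DM arrays 2, 3 or 4, with 0.059, 0.0589 and 0.051. With no filter on dim genes Jak2 and Irf9 had limma adjusted p-values of 0.0501 and 0.0703, and Irf9 had 0.0522 with array weights and 0.058 with the AngIV and NC groups alone. Over all alternatives, the call was kept in 22 of 23 for Ifit2, in 13 of 24 for Jak2 and in 8 of 23 for Irf9. Without AngIV array 2, Ifit1 and Usp18 were called beside Ifit2 and Irf9, and the count of 16 genes became 10 without NC array 2 and 10 without AngIV array 1.

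**Figure D3:**
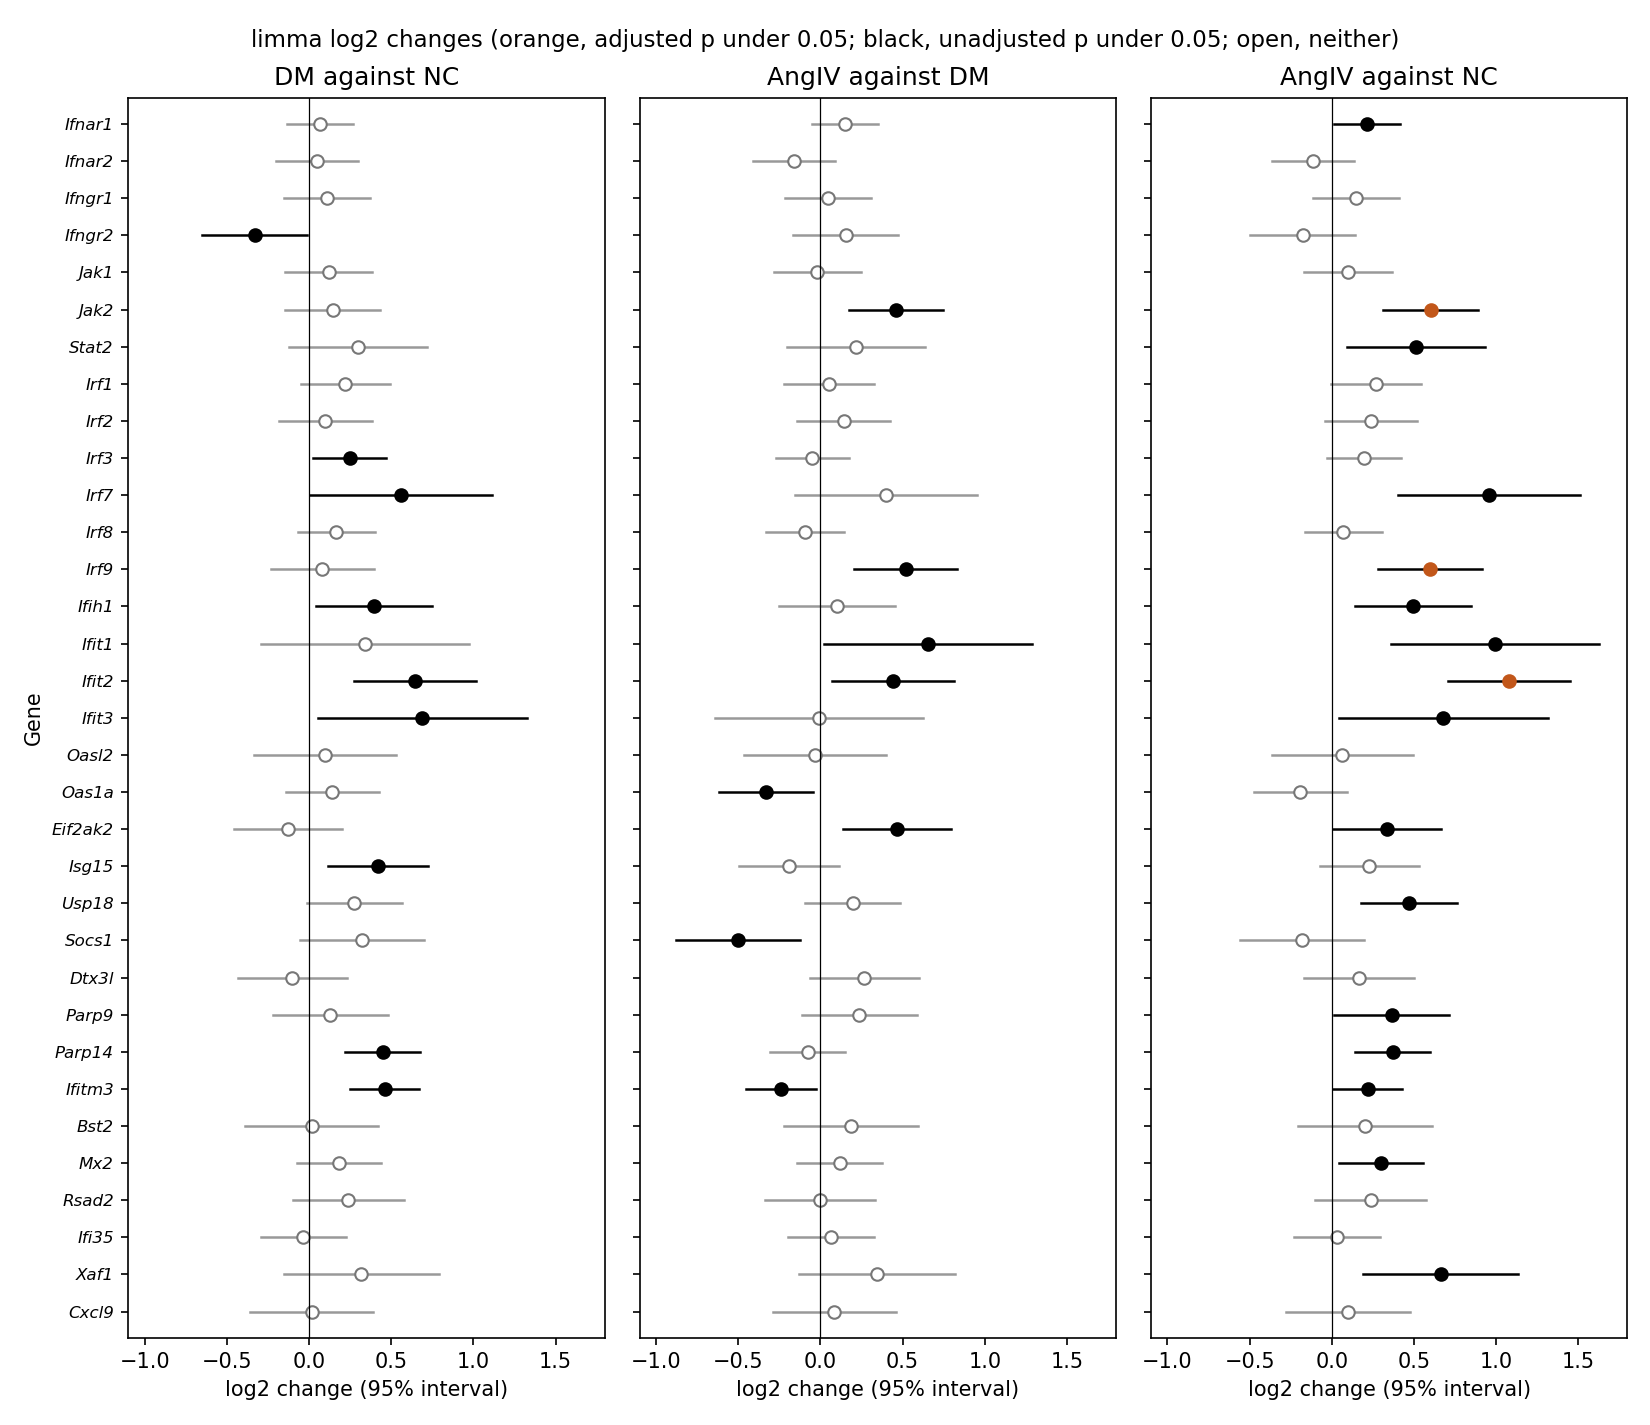
Log2 difference with its 95% interval for each of the 33 interferon genes tested, with the panels from left showing DM against NC, then AngIV against DM, then AngIV against NC, and genes in rows grouped by role. Orange marks a limma adjusted p under 0.05, black an unadjusted one and open points neither: Ifit2, Jak2 and Irf9 in AngIV against NC are orange, and 29 of 33 points lie above 0 in both comparisons with NC.

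The interferon genes differed between the arrays of a group. On each array the median of the 33 genes, each minus its NC mean, was 0.50, 0.11, 0.27 and 0.16 on the AngIV arrays, 0.23, 0.13, 0.19 and 0.21 on the DM arrays and 0.04, -0.11, 0.04 and -0.05 on the NC arrays (log2). All AngIV and DM arrays lay above all NC arrays, and AngIV and DM arrays overlapped. The NC arrays make up the mean subtracted, so they lie around 0 by construction. The genes were chosen with earlier results known, so this order of arrays is a description only. Within the AngIV group, array 1 was the highest for 17 of 33 genes (51.5%), where it was for 29% of all genes tested. AngIV array 2 was the lowest of its group for 16 of 33 (48.5%), where it was for 24.8% of all genes tested. The lowest NC array for 16 of 33 (48.5%) was NC array 2, where it was for 28.2% of all genes tested. For the 3 IFIT genes the median was 1.31, 0.07, 1.15 and 0.63 on the AngIV arrays, 0.38, 0.43, 0.81 and 0.77 on the DM arrays and 0.43, -0.43, -0.17 and -0.12 on the NC arrays.

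Macrophages are resident immune cells of the heart, and their markers were read on the same arrays. The mean log2 signal of the 11 macrophage markers analysed was 6.28, 6.45, 6.31 and 5.68 on the AngIV arrays, 6.67, 6.00, 6.22 and 5.64 on the DM arrays and 5.84, 5.63, 5.71 and 5.64 on the NC arrays. It lay above the NC range on AngIV arrays 1 to 3 and DM arrays 1 to 3. All 11 markers had a difference above 0 in AngIV against NC and in DM against NC, with 4 and 3 of them at an unadjusted limma p under 0.05 and 0 called. Of all genes tested, 50.6% and 49.6% had a difference above 0 in the same order, and 10.9% and 5.62% were higher at such a p. At or under background lay 4 of the 11 in AngIV, 4 in DM and 5 in NC. With this mean as a covariate, 0 interferon genes were called in AngIV against NC with limma, where 3 were without it. Calls over all genes tested went from 293 to 17. Interferon genes with an unadjusted limma p under 0.05 went from 16 to 10, with no share of all genes set beside the 10. The differences were 1.04 for Ifit2 (limma adjusted p = 0.0791), 0.44 for Jak2 (limma adjusted p = 0.279) and 0.54 for Irf9 (limma adjusted p = 0.273). Without the covariate they were 1.08, 0.60 and 0.60. The part of macrophages in these differences was not tested.

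Of 7 monocyte and neutrophil markers, 6 lay at or under background in every group and 4 were tested. The mean log2 signal of the 7 on an array was 3.47 to 3.65 in AngIV, 3.54 to 4.49 in DM and 3.25 to 3.63 in NC. All 4 had a difference above 0 in DM against NC, 3 of them at an unadjusted limma p under 0.05, and 3 in AngIV against NC, 1 at such a p, with 0 called. Of all genes tested, 49.6% and 50.6% had a difference above 0 in the same order, and 5.62% and 10.9% were higher at such a p. Ly6c2, a marker of inflammatory monocytes, was the one above background, and differed by 0.67 in AngIV against NC (limma adjusted p = 0.0537) and by 0.58 in DM against NC (limma adjusted p = 0.227). Of 5 fibroblast markers tested, 1 was called, Col3a1, a fibrillar collagen gene, which averaged 6.02 in AngIV, 6.73 in DM and 7.19 in NC. It fell by 1.17 in AngIV against NC (log2, limma adjusted p = 0.0097), where 0.623% of all genes tested were called lower. Col1a1, the other collagen gene of the list, averaged 5.91 in AngIV and 6.33 in NC. The remaining markers stood closer, with Dcn at 11.02 in AngIV and 10.96 in NC, Lum at 7.37 and 7.39, and Tcf21 at 5.58 and 5.64. The mean of the fibroblast markers on an array was 6.96 to 7.36 in AngIV, 7.26 to 7.53 in DM and 7.24 to 7.75 in NC. Of 6 endothelial markers, 4 had a difference above 0 in AngIV against NC, 2 at an unadjusted limma p under 0.05 and 0 called. The same counts held for 6 smooth muscle and pericyte markers, beside 50.6% and 10.9% of all genes tested. The mean of the endothelial markers on an array was 7.14 to 7.51 in AngIV, 7.06 to 7.45 in DM and 7.05 to 7.32 in NC, highest on AngIV array 1. The part of all these cells in the differences of the interferon genes was not tested. With the mean of the atrial markers as a covariate, Ifit2, Jak2 and Irf9 were all called. Leaving out the arrays that carried atrial Myl7 left 4 AngIV arrays, 1 DM array and 2 NC arrays, the lone DM array being assumed to vary like the other groups. In that fit Ifit2 alone of the 33 was called (limma adjusted p = 0.0485), while Jak2 differed by 0.67 (limma adjusted p = 0.0717) and Irf9 by 0.73 (limma adjusted p = 0.126).

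**Figure D4:**
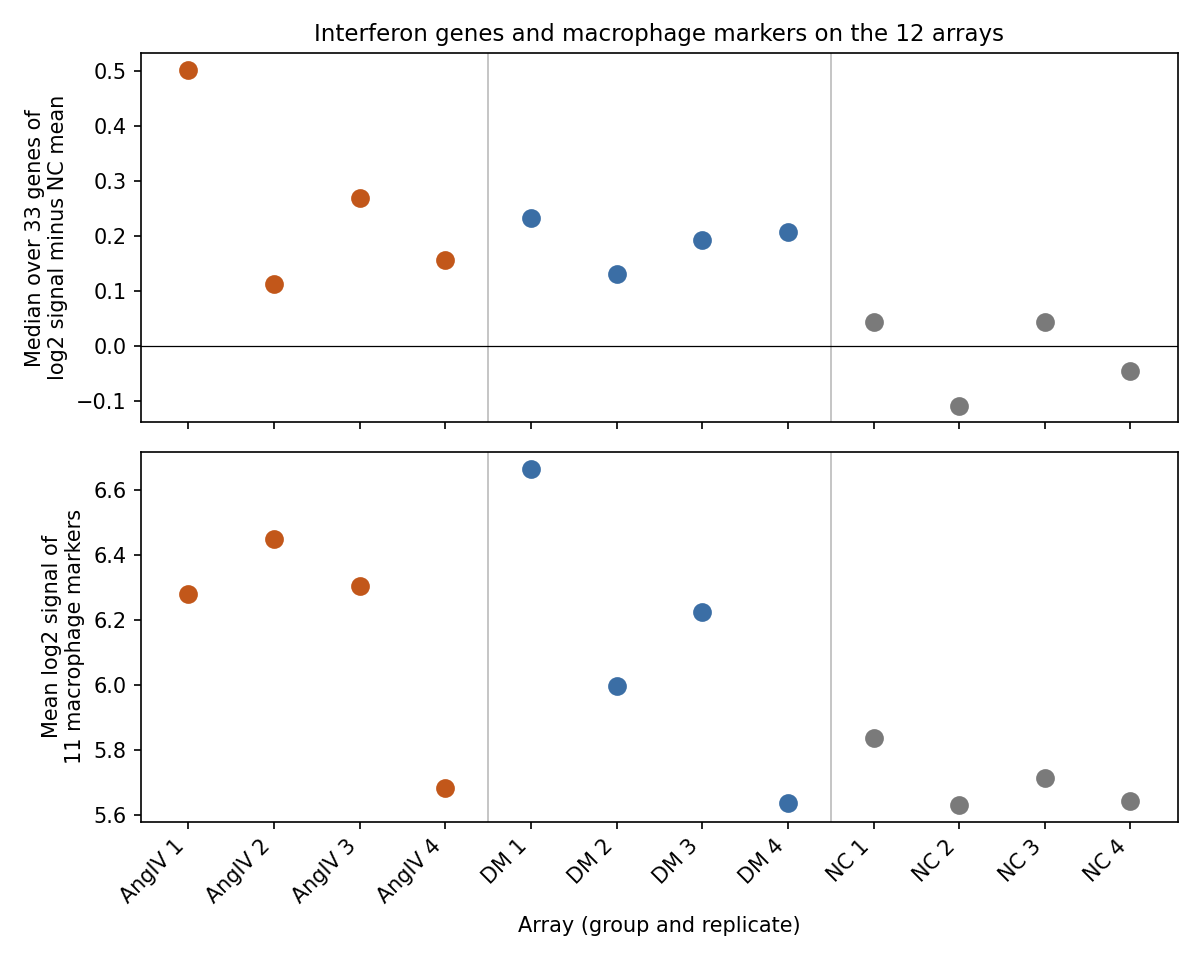
Median log2 difference of the 33 interferon genes from their NC means on each array, and mean log2 signal of the 11 macrophage markers on each array, AngIV left, then DM, then NC. The median of interferon genes is above the NC arrays on all AngIV and DM arrays, highest on AngIV array 1 at 0.50, while the macrophage mean of AngIV array 4 and DM array 4 lies within the NC range.

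Other genes of the pathway, named on lists chosen with earlier results of these data known, were read beside the set. Of 42 other interferon-stimulated genes tested, 2 rose and 0 fell in AngIV against NC at a limma adjusted p under 0.05. Of all genes tested, 1.52% rose and 0.623% fell by that measure. In DM against NC and in AngIV against DM 0 of the 42 were called, where 0.022% and 0% of all genes tested were called. Cd274, which encodes the checkpoint ligand PD-L1, averaged 5.45 ± 0.43 in AngIV, 4.90 ± 0.26 in DM and 4.56 ± 0.18 in NC, near background, and its difference in AngIV against NC was 0.89 ± 0.19 (limma adjusted p = 0.0249). Lgals3bp, a secreted galectin-binding glycoprotein, averaged 6.39 ± 0.19 in AngIV, 6.15 ± 0.16 in DM and 5.80 ± 0.22 in NC, and rose 1.51-fold in AngIV against NC, by 0.60 ± 0.13 (limma adjusted p = 0.031). At an unadjusted limma p under 0.05, 12 of the 42 were higher (28.6%, beside 10.9% of all genes tested) and 2 lower (4.76%, beside 7.74%) in AngIV against NC. In AngIV against DM 2 were higher (4.76%, beside 5.27%) and 1 lower (2.38%, beside 3.51%), both under the share of all genes. In DM against NC 9 were higher (21.4%, beside 5.62%) and 0 lower (beside 5.08%).

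The 6 other pathway genes of smallest p in DM against NC were Ifi204, Ifitm1, Ly6e, Ifi30, Ifi27l2a and Lgals3bp, all higher in DM. Ifi204, a DNA-sensor family gene, averaged 6.52 ± 0.14 in AngIV, 6.58 ± 0.25 in DM and 6.01 ± 0.17 in NC, and the difference in DM against NC was 0.57 ± 0.13 (limma adjusted p = 0.127). Ifitm1, a relative of Ifitm3, averaged 6.43 ± 0.25 in AngIV, 6.34 ± 0.41 in DM and 5.67 ± 0.28 in NC, with 0.67 ± 0.19 (limma adjusted p = 0.223). Of 21 other signalling and sensing genes tested, 0 were called in any of the 3 comparisons, and 0 were lower at an unadjusted limma p under 0.05. By that measure 5 were higher in AngIV against NC (23.8%, beside 10.9% of all genes tested) and 4 in AngIV against DM (19%, beside 5.27%). In DM against NC 1 was higher (4.76%, under the 5.62% of all genes). The 6 other pathway genes of smallest p in AngIV against DM were Tbk1, Shisa5, Cd274, Tyk2, Il10rb and Ifi27, of which Shisa5 was lower and the rest higher in AngIV. Tbk1, the kinase that activates IRF3, differed by 0.34 ± 0.10, or 1.26-fold, in AngIV against DM (limma adjusted p = 0.413), without overlap between the groups. Tyk2, the kinase on IFNAR1, differed by 0.37 ± 0.14, or 1.29-fold (limma adjusted p = 0.496), also without overlap.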

How the data were processed

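Log2 values for every probe set of single-colour Affymetrix arrays came from a table the authors deposited after RMA (background correction, quantile normalization, probe summary), per the submitters' processing notes. The RMA version, chip description file and build are not given in the sources used here. Normalizing by quantiles hides a change in total mRNA, and RMA compresses small signals. The deposited values were not renormalized. Probe sets took their gene symbol from the platform annotation, and all 19572 with a symbol matched RefSeq by Entrez ID. Of 19505 genes, the dimmest 30% (mean log2 under 3.40) were left out, leaving 13653.

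Differences were tested with limma 3.58.1 (lmFit, eBayes) in R 4.3.3, with 1 mean per group over all 12 arrays and Benjamini-Hochberg adjustment over the 13653 genes. The script was tested on simulated data. Promoter letters and figures were made in Python 3.11.15 and matplotlib 3.10.9. The number of arrays limits the precision, with 4 mice a group. The p-values set a group difference against the spread between mice within groups, pooled over the 3 groups and moderated by limma across genes. Alternatives changed the dim filter, the prior, the arrays, the groups fitted, covariates, the replicate block and centring.

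The members and lists were chosen with earlier results of these data known. Values on every array are given for each member called, or with an unadjusted p under 0.05, in at least 1 comparison. Of the other pathway genes, those called are named, otherwise the 6 of smallest p.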

Additional observations from a re-analysis of the deposited data

Results flagged for a closer look

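Over 99 groups of 4 arrays (33 genes in 3 groups), 10 held an array beyond Dixon's 95% limit for 4 samples. The limit is on the share of the group's range taken up by the gap between that array and its nearest neighbour. Chance flags about 1 in 20 groups, but genes on the same array are not independent. The share flagged among all genes was not computed, so the count shows nothing particular to interferon genes. The share of the range was 0.959 for Irf9 on DM array 1, the highest of its group at 4.95 beside 4.59 to 4.61 on the others. It was 0.909 for Ifih1 on the same array (5.92 beside 5.66 to 5.68) and 0.878 for Jak1, also highest there (6.27 beside 5.88 to 5.93). DM array 1 was the lowest for Ifngr2, with a share of 0.865 (7.72 beside 8.27 to 8.35).

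For Ifngr2 in NC, array 1 was the lowest with a share of 0.895 (8.15 beside 8.57 to 8.62). NC array 2 was the highest for Cxcl9 with a share of 0.899 (5.43 beside 4.68 to 4.75), and DM array 2 was the lowest for Parp9 with 0.859 (4.30 beside 4.62 to 4.68). In AngIV, array 1 was the lowest for Ifngr1 with 0.885, within a narrow range (6.92 beside 6.95 to 6.96). AngIV array 3 was the highest for Irf8 with 0.893 (5.04 beside 4.63 to 4.67), and AngIV array 4 was the lowest for Isg15 with 0.914 (3.42 beside 3.89 to 3.93). Irf9, Ifih1, Irf8, Isg15, Parp9 and Cxcl9 have group means near background in at least 1 group.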

How the results depend on the processing

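Over the 3 comparisons, the 33 differences with an unadjusted limma p under 0.05 were followed under the alternatives, and only 3 of them were called as reported. Of their 765 values, 731 kept their side of the threshold, 27 lost a call, 7 gained one and 0 reversed. All 27 lost calls were of Ifit2, Jak2 and Irf9. For the differences not called, keeping their side meant only staying uncalled, so the 731 say little about stability. In DM against NC, the count of all genes called, 3 as reported, was 20 with the dimmest 50% left out, 22 with genes required to pass the negative controls, 29 with a trend in the prior, 5 with the 2 groups alone, 1 with the macrophage covariate and 0 without the arrays with atrial signal. Interferon genes called were 1 (Ifitm3) with the negative control filter and 1 with the trend, and those with an unadjusted p under 0.05 were 5 with that filter and 5 with the macrophage covariate. In AngIV against DM, interferon genes with an unadjusted p under 0.05 were 5 with the dimmest 50% left out, 3 with the negative control filter and 4 without the arrays with atrial signal. In AngIV against NC, genes called, 293 as reported, were 492, 633, 576, 466, 17 and 102 under the same 6 settings. Interferon genes called were 1 with the negative control filter, 0 with the macrophage covariate and 1 without the arrays with atrial signal, and those with an unadjusted p under 0.05 were 8 with the filter and 10 with the macrophage covariate. The negative control filter kept genes above the negative control level in at least 1 group. Stat2, Irf3 and Ifih1 passed it although under that level in NC. It left 17 interferon genes to test, without Ifit2 and Irf9, and leaving out the dimmest 50% left 25, beside 33 as reported. Counts under these filters therefore have fewer genes to draw on, and shares of all genes at an unadjusted p were not set beside them. The cause of the other shifts was not tested. Leaving out the arrays with atrial signal was chosen after seeing the data. It left 4 AngIV, 1 DM and 2 NC arrays, so its 0 calls in DM against NC and its 4 genes in AngIV against DM rest on a lone DM array assumed to vary like the other groups, and say nothing about stability.

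Leaving out 1 array at a time, genes called were 3 to 30 in DM against NC, 0 to 5 in AngIV against DM and 104 to 469 in AngIV against NC. Interferon genes called were 0 to 0, 0 to 0 and 1 to 4 in the same order, and those with an unadjusted p under 0.05 were 5 to 10, 4 to 12 and 10 to 17. Their median differences were 0.15 to 0.20, 0.05 to 0.17 and 0.18 to 0.30.

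Most same-numbered arrays did not deviate together (correlations of -0.12 to 0.21, 2 of 12 above 0.1), so the numbers were not taken to pair samples. The highest, 0.21, was between AngIV array 2 and NC array 2, each the lowest of its group for 16 of 33 interferon genes. With the replicate number as a block, 0, 0 and 3 interferon genes were called, the last being Ifit2, Irf7 and Irf9, with Jak2 at a limma adjusted p of 0.0663. With no filter on dim genes, Trim21 and Ifit2 were called in AngIV against NC, and Jak2 and Irf9 were not. Of the 33 genes tested, 19 were not above background in all groups, so their differences involve near-background signals in at least 1 group.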

Other observations

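Trim21, which encodes an antibody receptor and ubiquitin ligase of the cytosol, lay under the limit for dim genes. Its log2 signals were 3.46 to 3.73 on the AngIV arrays, 2.83 to 3.12 on the DM arrays and 2.59 to 3.17 on the NC arrays. Every AngIV array lay above every DM and NC array. With no filter on dim genes the difference was 0.68 ± 0.13 (SE) in AngIV against NC (limma adjusted p = 0.0192) and 0.63 in AngIV against DM (limma adjusted p = 0.283), both of signals near background. The other 5 dim genes had limma adjusted p-values of 0.379 or more in all comparisons under that setting.

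Of the tested genes with a promoter window, 12 held ISRE-type letters and 17 did not. At an unadjusted limma p under 0.05, 6 of the 12 and 6 of the 17 were higher in AngIV against NC, 2 and 3 in AngIV against DM, and 4 and 3 in DM against NC, where 10.9%, 5.27% and 5.62% of all genes tested were higher in the same order. The median difference of the genes with and without such letters was 0.24 and 0.17 in AngIV against NC, 0.05 and 0.08 in AngIV against DM, and 0.31 and 0.11 in DM against NC. These are descriptions without a test.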
